A study of Caenorhabditis elegans with 36 samples.

Results

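The regions examined here were the binding peaks of DVE-1 in *Caenorhabditis elegans* worms fed control RNAi and in worms fed *hda-1* RNAi, both without *atp-2* RNAi. The control RNAi list held 4279 peaks and the *hda-1* RNAi list 6962, together 11241 of the 57748 peaks in the 8 lists of the series. A control RNAi peak that no *hda-1* RNAi peak overlapped by at least 1 bp was called lost, an *hda-1* RNAi peak with no such partner was called gained, and the others were called kept. Both groups were day 1 adults, grown at 20 °C on RNAi bacteria from the L1 larval stage. The control was the empty vector L4440, and the other clone targeted *hda-1*. All worms of both groups carried the transgene *dve-1p::dve-1::gfp*, which adds GFP-tagged DVE-1 under its own promoter to the protein made by the worm, together with the allele *glp-4(bn2)*, which is known to block growth of the germ line at restrictive temperature. Chromatin was taken from whole worms and precipitated through the GFP tag (ChIP), with 2 ChIP and 2 input samples per group and no untagged strain. Each group was deposited as 1 list that holds only peak positions, so that peak height, the spread between samples and the number of reads behind each list are unknown. The study states only a minimum depth that all its samples passed. No test between the groups could be made, and the 95% Wilson intervals below cover counting error only, since peaks or genes of 1 list are not replicate worms. The records of both groups were written in different forms, with a knockdown entry for control RNAi only, so that the RNAi and any difference in when or how deeply the samples were sequenced cannot be told apart. The lists hold no reads over the *hda-1* transcript, and the degree of knockdown was not analysed here.

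DVE-1 is a homeodomain protein related to human SATB1 that moves into intestinal nuclei when mitochondria are damaged, and it is needed for the mitochondrial unfolded protein response (UPRmt), the program that raises mitochondrial chaperones and proteases. HDA-1 is a class I histone deacetylase, which removes acetyl groups from histone tails and works in chromatin complexes such as NuRD. The list comparison asked which sites of DVE-1 were still found when HDA-1 was lowered. A peak marks where tagged DVE-1 was enriched over input and not what the gene nearby does.

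Sequences are shown first because one short word occurred at different rates in lost and gained peaks. The word CTTATCA, read on the other strand as TGATAAG, holds the core that GATA transcription factors bind. Of 117 named genes off the first chromosome that gained a DVE-1 peak near their start, 30 (25.6%) had the word in the gained peak. Of 44 that lost a peak 5 (11.4%) had it in the lost peak. Only the part of a peak within 500 bp of the 5′ end was searched. Among lost genes its length ran, for example, from 13 bp at *hsp-16.48* to the whole window at *nlp-26*. Many of the genes were also picked for coverage, so these shares are not like for like. Shares over all peaks and in windows of equal length are given below. Examples chosen after these values were seen are given on the strand of the gene, 5′ to 3′, as 41 bases of the WBcel235 reference with the word in capitals. They are the gained sites at *elt-7* (V:4770574-4770614), *irg-1* (V:3523349-3523389), *cyp-35A2* (V:7364235-7364275), *cyp-34A2* (V:15291165-15291205), *nhr-247* (V:15322864-15322904) and *clec-205* (V:1760814-1760854), and the lost site at *nlp-26* (V:19613285-19613325).
elt-7, gained: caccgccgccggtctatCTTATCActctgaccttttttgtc
irg-1, gained: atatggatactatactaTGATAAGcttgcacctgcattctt
cyp-35A2, gained: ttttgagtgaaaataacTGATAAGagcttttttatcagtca
cyp-34A2, gained: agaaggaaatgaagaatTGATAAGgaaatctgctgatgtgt
nhr-247, gained: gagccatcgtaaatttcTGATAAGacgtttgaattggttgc
clec-205, gained: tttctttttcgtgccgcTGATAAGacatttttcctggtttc
nlp-26, lost: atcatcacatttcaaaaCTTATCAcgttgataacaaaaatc

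In these examples the middle of the word lay 76 bp upstream of the annotated 5′ end of *elt-7*, 218 bp upstream at *irg-1*, 73 bp at *cyp-35A2*, 90 bp at *cyp-34A2*, 98 bp at *nhr-247*, 59 bp at *clec-205* and 156 bp at *nlp-26*. A match of letters is a description and does not show that a factor is bound there.

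The centres of 2 lost and 2 gained peaks, the widest of each set outside the first chromosome, are shown on the plus strand, to let the base composition of such broad regions be seen. Capitals mark any of the 3 words searched, CTTATCA, CTGCGTCTC and GAGAGAGA, on either strand. The first lost peak (III:122418-127964) lay at *pals-23* and the second (V:20395372-20399927) lay over *F53H2.3*. The first gained peak (IV:5701593-5709278) lay at *C55C3.1* and *perm-5*, and the second (IV:4638490-4646166) at *F19C7.8*.
lost, III:125092-125291: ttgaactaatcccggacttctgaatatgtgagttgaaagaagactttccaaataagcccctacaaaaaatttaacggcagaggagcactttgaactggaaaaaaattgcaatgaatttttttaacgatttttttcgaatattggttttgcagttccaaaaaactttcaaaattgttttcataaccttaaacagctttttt
lost, V:20397550-20397749: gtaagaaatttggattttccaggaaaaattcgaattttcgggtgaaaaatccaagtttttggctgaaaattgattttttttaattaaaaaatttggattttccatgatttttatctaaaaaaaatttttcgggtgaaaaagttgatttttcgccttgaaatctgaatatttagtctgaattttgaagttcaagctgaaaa
gained, IV:5705336-5705535: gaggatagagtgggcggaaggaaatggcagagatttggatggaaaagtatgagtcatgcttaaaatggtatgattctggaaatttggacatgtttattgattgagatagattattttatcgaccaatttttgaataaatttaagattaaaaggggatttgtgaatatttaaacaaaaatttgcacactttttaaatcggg
gained, IV:4642229-4642428: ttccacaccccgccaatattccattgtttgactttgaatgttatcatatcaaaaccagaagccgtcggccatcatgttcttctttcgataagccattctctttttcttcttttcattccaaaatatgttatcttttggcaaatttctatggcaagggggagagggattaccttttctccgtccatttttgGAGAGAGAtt

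GC content in these 4 stretches was 31%, 26%, 31.5% and 39%, and only the last held a searched word, 1 copy of GAGAGAGA. Over whole peaks the median GC content differed little between the sets. It was 36.7% for lost, 36.8% for kept control RNAi, 36.1% for gained and 36.6% for kept *hda-1* RNAi peaks.

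Most DVE-1 peaks of control worms were still listed under *hda-1* RNAi, and many more appeared. The study reported from imaging that *hda-1* RNAi lowered the level of GFP-tagged DVE-1, which lists of peak positions do not measure. Of the 4279 control RNAi peaks 243 (5.68%, 95% interval 5.02 to 6.41) were lost and 4036 were kept. Of the 6962 *hda-1* RNAi peaks 2865 (41.2%, 40.0 to 42.3) were gained and 4097 were kept. The peaks covered 8661491 bp under control RNAi and 12183815 bp under *hda-1* RNAi, which were 8.64% and 12.2% of the 6 nuclear chromosomes. Of the covered base pairs 7167825 lay in both lists, or 82.8% of the control RNAi and 58.8% of the *hda-1* RNAi coverage.

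Lost and gained peaks were both narrow. The median width was 738 bp for lost peaks (quartiles 411 and 1180 bp) and 754 bp for gained peaks (473 and 1416 bp), beside 1365 bp for kept peaks in the control RNAi list and 1579 bp for kept peaks in the *hda-1* RNAi list. Among control RNAi peaks under 500 bp 86 of 607 (14.2%, 11.6 to 17.2) were lost, and among those of 4000 bp or more 2 of 550 (0.364%, 0.0998 to 1.32). Among *hda-1* RNAi peaks under 500 bp 812 of 1229 (66.1%, 63.4 to 68.7) were gained, and among those of 4000 bp or more 33 of 651 (5.07%, 3.63 to 7.03). In each of the 5 width classes the gained share of the *hda-1* RNAi list was above the lost share of the control RNAi list. The *hda-1* RNAi list is the longer one, which by itself raises its share without a match. A wider peak also meets the 1-bp rule more easily, so part of the fall with width is built in.

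**Figure D1:**
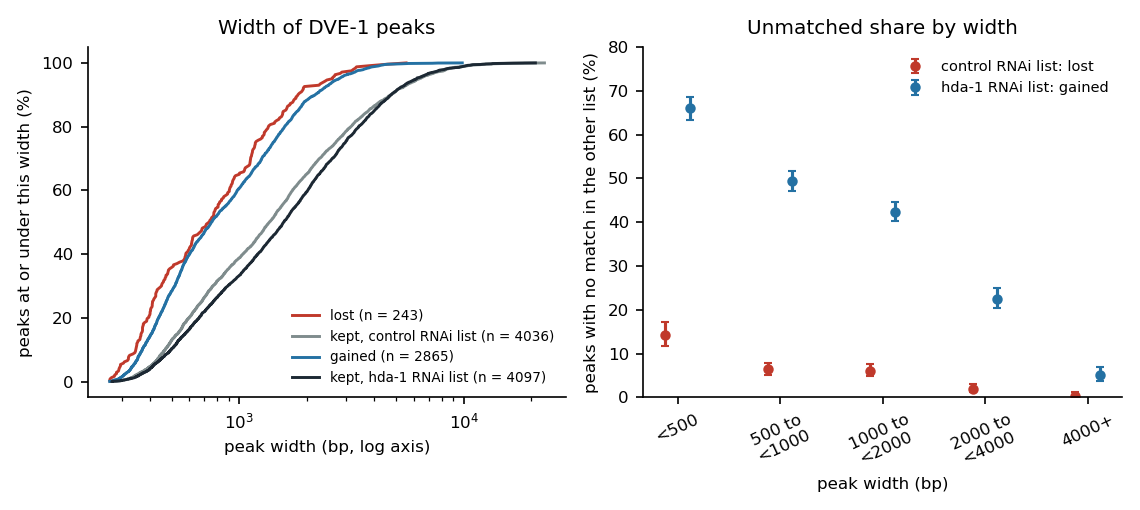
The left panel gives, for each set of DVE-1 peaks, the cumulative share of peaks in % (vertical axis) against peak width in bp (log axis). The right panel gives the share of each list with no match in the other list, by width class, with 95% Wilson intervals as bars. Lost and gained peaks (medians 738 and 754 bp) lie to the left of kept peaks (1365 and 1579 bp), and the unmatched share falls with width in both lists, from 14.2% to 0.364% and from 66.1% to 5.07%. Part of this fall is built in, since a wider peak overlaps another more easily.

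The split into lost and kept did not rest on peaks that barely touched or barely missed. The smallest overlap of a kept control RNAi peak was 227 bp, and the smallest gap between a lost peak and an *hda-1* RNAi peak was 572 bp. The median gap was 4265 bp for lost peaks and 7347 bp for gained peaks, and 57 lost (23.5%) and 1129 gained peaks (39.4%) lay over 10000 bp from the other list.

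A kept peak was not always the same peak. In 3577 pairs of peaks that matched one to one, the median ratio of the *hda-1* RNAi to the control RNAi width was 1.03 (quartiles 0.896 and 1.34), with 2065 peaks wider and 1512 not. In 437 pairs (12.2%) the *hda-1* RNAi peak was at least 2 times as wide, and in 185 (5.17%) the control RNAi peak was. Of the kept control RNAi peaks 252 of 4036 (6.24%, 5.54 to 7.03) had under 50% of their length listed under *hda-1* RNAi. That share was 0 of 521 in peaks under 500 bp and 48 of 548 (8.76%) in peaks of 4000 bp or more, whose median listed length was 88.8%.

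Base pairs that left the list lay more often in genes than base pairs that stayed or entered it. Of the 1493666 bp listed under control RNAi only, 34.6% were in exons of protein-coding genes and 27.8% lay outside such genes, against 20.5% and 50.4% of the base pairs in both lists. For the 5015990 bp listed under *hda-1* RNAi only these shares were 21.2% and 52.1%, and for the genome 29.5% and 37.3%. Of the control-only base pairs 84.3% came from kept peaks and 15.7% from lost peaks. Of the *hda-1*-only base pairs 61.4% came from gained peaks.

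Gained peaks held the GATA-type word most often and lost peaks least often. CTTATCA was found, on either strand, in the central 200 bp of 430 of 2865 gained peaks (15.01%, 13.7 to 16.4), 350 of 4036 kept control RNAi peaks (8.67%, 7.84 to 9.58) and 4 of 243 lost peaks (1.65%, 0.642 to 4.16). It was present in 3.44% of consecutive 200-bp windows of the genome and in 5.93% of 200-bp windows on the 5′ ends of protein-coding genes. In peaks of 500 to under 1000 bp the shares kept this order, with 19.8% of 923 gained, 13.3% of 1043 kept control RNAi and 2 of 71 lost peaks (2.82%, 0.776 to 9.70). In the 500 bp upstream of protein-coding genes, a window that does not depend on peak position, the word was found at 23.2% of genes that gained a peak, 19.5% of those that kept one, 6.98% (4.66 to 10.3) of those that lost one and 9.19% of those with no peak in either list.

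The other words were a GAGA repeat and CTGCGTCTC, whose shares in gained and kept peaks had overlapping intervals over all widths. GAGAGAGA was held by 4.64% of gained, 5.05% of kept control RNAi and 2.47% (1.14 to 5.28) of lost peaks, against 1.31% of genome windows. CTGCGTCTC was held by 5.31% of gained, 4.66% of kept control RNAi and 2.47% of lost peaks, against 0.791% of genome windows. In peaks of 500 to under 1000 bp GAGAGAGA was held by 4.44% of gained (3.29 to 5.97), 7.29% of kept control RNAi (5.86 to 9.03) and 1 of 71 lost peaks, and CTGCGTCTC by 5.85%, 6.81% and 2 of 71. GAGAGAGA reads TCTCTCTC and CTGCGTCTC reads GAGACGCAG on the other strand, and none of the 3 words contains another.

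Lost peaks were more frequent toward the ends of the autosomes. Within 25% of the chromosome length from either end of an autosome 165 of 1483 control RNAi peaks (11.1%, 9.63 to 12.8) were lost, and in the central 50% 56 of 1898 (2.95%, 2.28 to 3.81). The outer share was the higher in all 5 width classes, for example 22.5% of 231 against 8.14% of 258 peaks under 500 bp. Gained shares were 38.1% of 2205 outer and 42.7% of 3250 central *hda-1* RNAi peaks on the autosomes. Chromosome X lost 22 of 898 peaks (2.45%, 1.62 to 3.68), whereas the 5 autosomes lost between 5.67% and 7.29%. Peak numbers on X went from 898 to 1507, and the ratio of the lists was between 1.48 and 1.77 on every chromosome. Repeated sequence, marked by lower case in the reference, filled a median of 40.9% of a lost peak, against 29.4% of a kept control RNAi and 27.1% of a gained peak. It made up at least 50% of 81 of 243 lost peaks (33.3%, 27.7 to 39.5) and of 405 of 4036 kept ones (10.03%). By base pairs it was 45.8% of lost, 31.5% of kept control RNAi and 29.0% of gained peaks, against 35.7% of the genome. These repeat shares were not split by position along the chromosome. The authors kept only uniquely mapped reads, and the part of mapping in the calls over repeats was not tested.

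The other 6 lists of the series show where lost and gained peaks were also found. Gained peaks were nearly all found again when *atp-2* RNAi was added to *hda-1* RNAi, in 2666 of 2865 cases (93.1%, 92.1 to 93.9), and 1706 (59.5%, 57.7 to 61.3) were also listed with control and *atp-2* RNAi. Lost peaks were listed with *hda-1* and *atp-2* RNAi in 101 of 243 cases (41.6%, 35.5 to 47.8) and with control and *atp-2* RNAi in 162 (66.7%, 60.5 to 72.3). Both *atp-2* lists came from samples other than those that defined lost and gained. Their records are set apart by *hda-1* RNAi in the same way, so the limit stated at the start holds for them too. Read as a pair, the *atp-2* lists held 1003 gained peaks (35.01%) with *hda-1* RNAi only and 43 (1.5%) with control RNAi only. Of the lost peaks 72 (29.6%) were there with control RNAi only and 11 (4.53%) with *hda-1* RNAi only. Both lists of the pair held 1663 gained (58.0%) and 90 lost peaks (37.0%), and neither held 156 (5.45%) and 70 (28.8%).

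HDA-1 itself was listed under control RNAi at 1417 of 2865 gained peaks (49.5%, 47.6 to 51.3) and at 164 of 243 lost peaks (67.5%, 61.4 to 73.1), against 3812 of 4036 kept control RNAi peaks (94.4%). In peaks of 500 to under 1000 bp these shares were 46.4%, 63.4% and 92.2%. At least 1 of the 4 HDA-1 lists held 73.5% of gained and 79.0% of lost peaks. Only 55 gained (1.92%) and 31 lost peaks (12.8%) were in none of the other 6 lists.

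**Figure D2:**
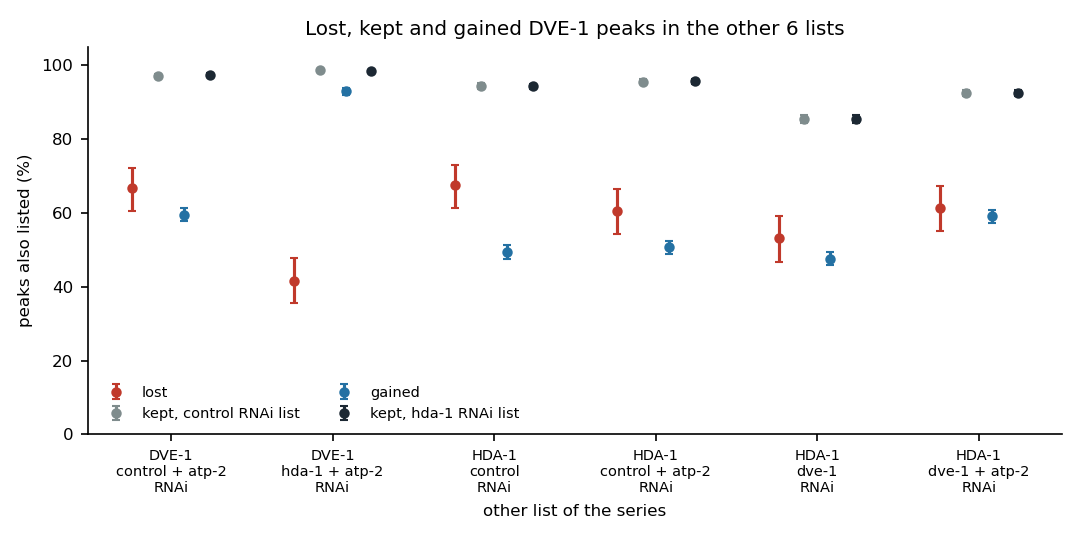
Each point is the share (vertical axis, %) of lost, kept or gained DVE-1 peaks that overlapped a peak of the other list named on the horizontal axis, with 95% Wilson intervals as bars. Kept peaks lie above lost and gained peaks in each list, and gained peaks come close to them only in the DVE-1 list of *hda-1* and *atp-2* RNAi (93.1%).

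To read the lists by gene, a gene was said to have a peak when one reached within 500 bp of its annotated 5′ end. Of 19973 protein-coding genes 3974 (19.9%) had a DVE-1 peak under control RNAi and 5962 (29.9%) under *hda-1* RNAi. Of the 3974 genes 315 lost it (7.93%, 7.13 to 8.81), and of the 15999 genes without a control RNAi peak 2303 gained one (14.4%, 13.9 to 14.9). These shares are the background for every gene class below. Of the lost genes 155 were lost because a matched peak no longer reached the 5′ end, and 160 had only lost peaks. Of the gained genes 1971 (85.6%) had only gained peaks. With *atp-2* RNAi 644 gained genes (28.0%) were gained by *hda-1* RNAi again, 1448 (62.9%) had a peak in both *atp-2* lists, 57 (2.48%) were lost and 154 (6.69%) had none. HDA-1 had a control RNAi peak at 1201 gained genes (52.1%), 217 lost genes (68.9%), 3458 kept genes (94.5%) and 1467 genes without a DVE-1 peak in either list (10.7%). Below, coverage is the number of base pairs, within 500 bp of the 5′ end on either side, that peaks of a list covered. It is called full where the peaks covered that whole window.

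The widest lost peak was 5547 bp at *pals-23*, of a gene family linked to immunity and proteostasis, and 1356 bp of it was listed with *hda-1* and *atp-2* RNAi against 4100 bp with control and *atp-2* RNAi. The next were a 4556-bp peak over *F53H2.3*, a 3871-bp peak (II:14864445-14868315) at *gpx-2*, a glutathione peroxidase gene, a 3332-bp peak over *Y41D4B.6* (IV:1634394-1637725) and a 3294-bp peak over *kel-8* and *Y45G12B.3* (V:2687284-2690577). None of the latter 4 had a base pair listed with *hda-1* and *atp-2* RNAi, and between 705 and 3529 bp of each were listed with control and *atp-2* RNAi. Genes whose 5′ end a peak did not reach are named here as the genes it overlapped.

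The widest gained peak was a 9868-bp region of chromosome I (10280469 to 10290336) with no annotated 5′ end of a gene within 500 bp. Of it 9850 bp were listed again with *hda-1* and *atp-2* RNAi, and 8494 bp were covered by HDA-1 under control RNAi. The next gained peaks were 7686 bp at *C55C3.1* and *perm-5*, 7677 bp at *F19C7.8*, 7249 bp at *olrn-1* (X:15535132-15542380), a gene of neuronal asymmetry, and 6800 bp at *C04F12.8*. HDA-1 control RNAi peaks covered 0 bp of the *C55C3.1* peak, 2359 bp of the *F19C7.8* peak, 3898 bp of the *olrn-1* peak and 5935 bp of the *C04F12.8* peak.

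Among regulators of the mitochondrial stress response the lost share did not stand apart from the background of 7.93%. Of 20 such genes 10 kept a peak, 2 gained one, 8 had none and 0 of the 10 with a control RNAi peak lost it (interval 0 to 27.8%). The gained genes were *haf-1*, which encodes a mitochondrial peptide exporter, with a coverage of 0 bp under control and 425 bp under *hda-1* RNAi, and *sphk-1*, a sphingosine kinase gene, with 0 bp and full. Both had an HDA-1 peak under control RNAi and a DVE-1 peak in both *atp-2* lists. Coverage was full in both lists at *hif-1*, *skn-1*, *clpp-1* and *nhr-80*. At *ubl-5*, whose product is a known partner of DVE-1, it was 449 bp and full. At *atfs-1*, the leucine-zipper factor that leads the UPRmt, it was 924 and 603 bp, and of the 5195-bp control RNAi peak (V:14193240-14198434) 21.04% was listed under *hda-1* RNAi. Neither *hda-1* nor *dve-1* itself had a peak at the 5′ end in any of the 4 DVE-1 lists, and reads from the *dve-1* transgene cannot be told apart from those of the gene.

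Genes listed with the mitochondrial chaperones that had a control RNAi peak all still had one within 500 bp of the 5′ end. At *hsp-60*, *timm-23* and *trap-1* most of that peak was gone. Of 18 genes listed for mitochondrial chaperones, proteases and import factors 9 kept a peak, 1 gained one and 8 had none. The gained member was *gpx-1* (0 and 600 bp), a glutathione peroxidase gene on that list and not a chaperone or protease. With a peak over the 5′ end itself 2 genes of the list lost one, 25% of those with one, against 14.7% of all protein-coding genes by that rule. At *hsp-6*, the mitochondrial HSP70 and usual UPRmt reporter, the 7361-bp control RNAi peak (V:4820212-4827572) was 94.7% covered under *hda-1* RNAi. At *hsp-60*, the mitochondrial chaperonin, 39.8% of the 7372-bp peak (III:1616220-1623591) was still listed, in 3 pieces, and coverage went from full to 170 bp. The same control RNAi peak lay at the neighbouring gene *Y22D7AL.10* of this list, where coverage went from full to 983 bp. At *timm-23*, part of the inner membrane translocase, 23.3% of 8855 bp was listed and coverage went from full to 527 bp. The gene *trap-1* was on the list by its symbol only and is not taken here as a mitochondrial chaperone. At *trap-1* 25.9% of 2042 bp was listed and coverage went from full to 469 bp. These 3 windows were fully covered with control and *atp-2* RNAi, and by 234 bp at *hsp-60*, the full window at *timm-23* and 568 bp at *trap-1* with *hda-1* and *atp-2* RNAi. Coverage at *phb-2*, a prohibitin gene, was 226 and 292 bp, and at the protease gene *ymel-1* 591 and 538 bp. The *phb-2* peak was 321 bp under control and 396 bp under *hda-1* RNAi, and the *clpp-1* peak 4315 and 4807 bp, so that both were wider.

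**Figure D3:**
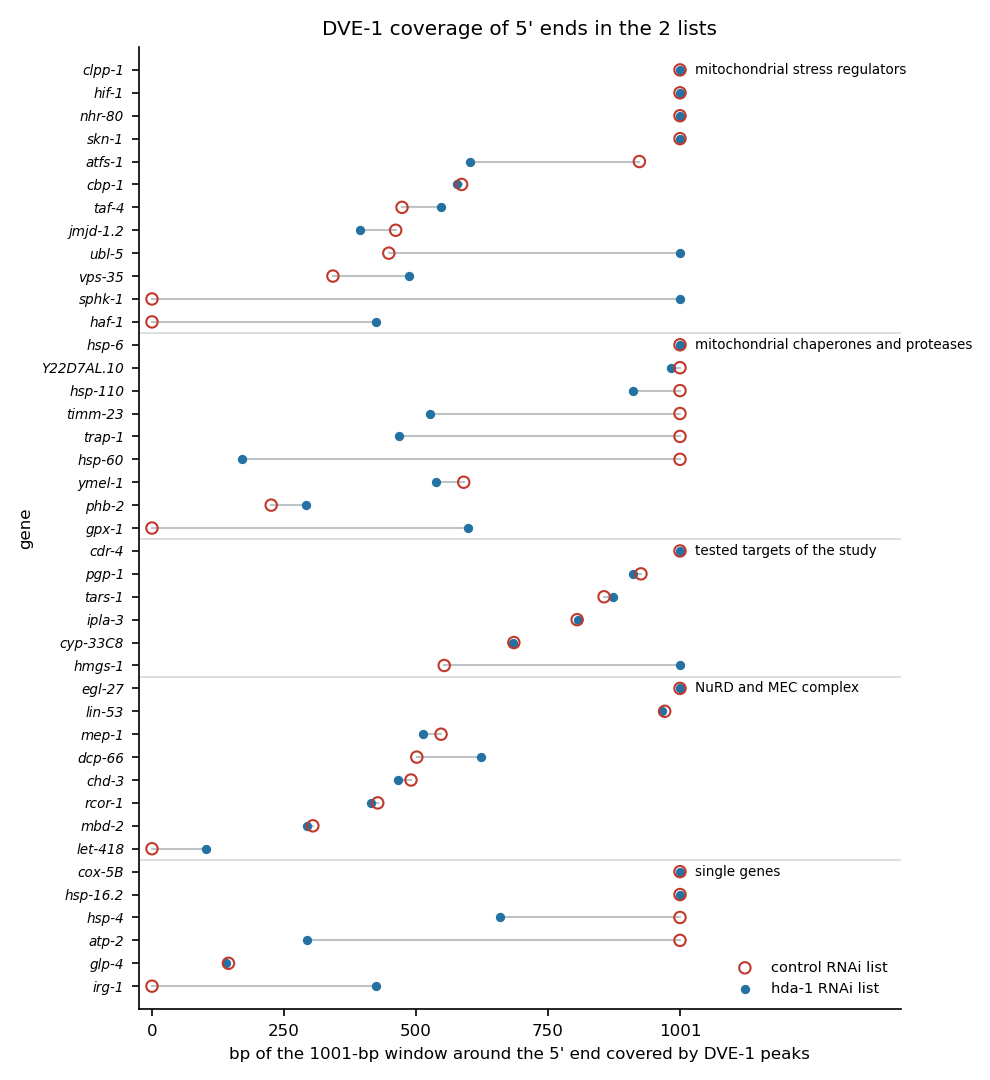
Each row is 1 of 41 genes with a DVE-1 peak in at least 1 of both lists, and the horizontal axis is how many bp within 500 bp of its 5′ end on either side the peaks covered under control RNAi (open) and *hda-1* RNAi (filled). Most pairs of points lie close together, while *hsp-60* (full and 170 bp), *atp-2* (full and 294 bp) and *trap-1* (full and 469 bp) moved left and *sphk-1* (0 bp and full) and *ubl-5* (449 bp and full) moved right.

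Parts of the control RNAi peak were also gone at some genes of the study's reporters and RNAi clones. At *atp-2*, the ATP synthase subunit targeted in the stress samples, 46.6% of a 9642-bp control RNAi peak (III:5221633-5231274) was listed under *hda-1* RNAi and coverage went from full to 294 bp. It was 0 bp in both lists with *atp-2* RNAi. At *hsp-4*, the ER chaperone BiP, coverage was full and 660 bp, and at *cox-5B*, also called *cco-1*, full in both lists. The cytosolic heat shock gene *hsp-16.2* had full coverage in both. Among control RNAi peaks the one with the most base pairs gone was 18564 bp long (V:20406917-20425480), at *fce-2* and *F48F5.8*, and 57.3% of it was still listed. A gene chosen after its values were seen, *dhs-25*, had 23.5% of its 6848-bp peak (X:1485809-1492656) left, while the window at its 5′ end stayed full.

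Genes of the complexes HDA-1 works in were too few to be read against the background. Of 12 genes of the NuRD and MEC complexes and their relatives 7 kept a DVE-1 peak, 1 gained one and 4 had none. Coverage was full in both lists at *egl-27*, 972 and 967 bp at *lin-53*, 548 and 514 bp at *mep-1*, 491 and 467 bp at *chd-3*, 502 and 624 bp at *dcp-66*, 428 and 416 bp at *rcor-1* and 305 and 293 bp at *mbd-2*. The gained gene was *let-418*, a Mi-2 remodeller, with 0 and 102 bp. Of 11 other deacetylase genes 2 kept a peak, *hda-6* lost one (374 and 0 bp) and *sir-2.1*, a sirtuin, gained one (0 and 521 bp).

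Of the 11 genes the study used to test HDA-1-dependent and DVE-1-dependent induction by qPCR, 6 kept a DVE-1 peak and 5 had none in either list. Coverage was nearly equal in both lists at *cdr-4* (full in both), *pgp-1* (927 and 911 bp), *tars-1* (857 and 874 bp), *ipla-3* (806 and 807 bp) and *cyp-33C8* (686 and 685 bp). At *hmgs-1*, the HMG-CoA synthase of the mevalonate pathway, it went from 554 bp to full. At *cdr-4* the peak itself was 2657 bp under control RNAi and 9100 bp under *hda-1* RNAi. The genes without a peak were *nhr-115*, *M04C3.2*, *djr-1.2*, *dnj-10* and *cua-1*.

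Genes of xenobiotic detoxification gained peaks more often than the background of 14.4%, while their lost shares were near or not distinguishable from the background of 7.93%. Among cytochrome P450 genes, which oxidise lipids and foreign compounds, 23 of 60 without a control RNAi peak gained one (38.3%, 27.1 to 50.98) and 1 of 14 lost it (7.14%). Among UDP-glucuronosyltransferases, which attach sugar acids to make compounds soluble, 19 of 47 gained a peak (40.4%, 27.6 to 54.7) and 0 of 20 lost one (0 to 16.1). Among glutathione S-transferases 11 of 35 gained a peak (31.4%, 18.6 to 48.0) and 0 of 14 lost one (0 to 21.5), with 9 peaks behind the 11 genes. Coverage was 0 bp and full at *cyp-35C1*, 0 and 876 bp at *cyp-35A2*, 0 bp and full at *ugt-25*, 0 and 877 bp at *ugt-39* and 0 bp and full at *gst-22*. Most of these genes also had a peak in both *atp-2* lists, namely 20 of the 23 P450, 15 of the 19 glucuronosyltransferase and 11 of the 11 glutathione S-transferase genes. ABC transporters, which export small molecules, gained at 10 of 26 genes (38.5%, 22.4 to 57.5), among them *mrp-2* (0 and 991 bp), and lost at 2 of 25 (8%), *haf-6* and *abch-1*.

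Of the immune lists, antimicrobial effectors gained peaks above the background and C-type lectins close to it. Among antimicrobial effectors, a list of lysozymes, saposin-like proteins, caenacins and related peptides, 30 of 94 gained a peak (31.9%, 23.4 to 41.9) on 26 peaks and 0 of 22 lost one. The invertebrate lysozyme genes *ilys-2* and *ilys-3* shared 1 gained peak (IV:2463446-2469002) and went from 0 bp to full. At *cnc-4*, a caenacin gene, coverage went from 0 bp to full with no peak in either *atp-2* list or under HDA-1 control RNAi. At *nlp-29*, an epidermal antimicrobial peptide gene, coverage was 0 and 814 bp, and at *irg-1*, an infection response gene and reporter, 0 and 424 bp. C-type lectins, of which many are linked to immunity, gained at 33 of 212 genes (15.6%, 11.3 to 21.1), and 0 of 28 lost a peak.

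Of the transcription factor families listed here, only nuclear hormone receptors had a gained interval wholly above the background of 14.4%. Nuclear hormone receptors gained a peak at 43 of 198 genes (21.7%, 16.5 to 28.0) and lost it at 2 of 71, *nhr-201* (full and 0 bp) and *nhr-78* (580 and 0 bp). Gained receptors included *nhr-23*, a moulting regulator, with 0 bp and full. Homeobox genes of the *ceh* series gained at 11 of 59 (18.6%, 10.7 to 30.4), such as *ceh-37* (0 and 810 bp). Of 13 genes listed as GATA factors 3 kept a peak and 2 gained one. That list includes *egl-27*, which kept a peak, and *lin-40*, which had none, both also counted above with the NuRD and MEC genes. The gained genes were *elt-7*, of the intestine, with 0 and 770 bp, and *elt-3*, of the hypodermis, with 0 and 222 bp. Helix-loop-helix genes had 3 kept and 22 without a peak, with 0 of 22 gained (interval 0 to 14.9%). The leucine-zipper gene *zip-9* lost coverage from full to 0 bp, and *zip-6* gained from 0 bp to full.

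**Figure D4:**
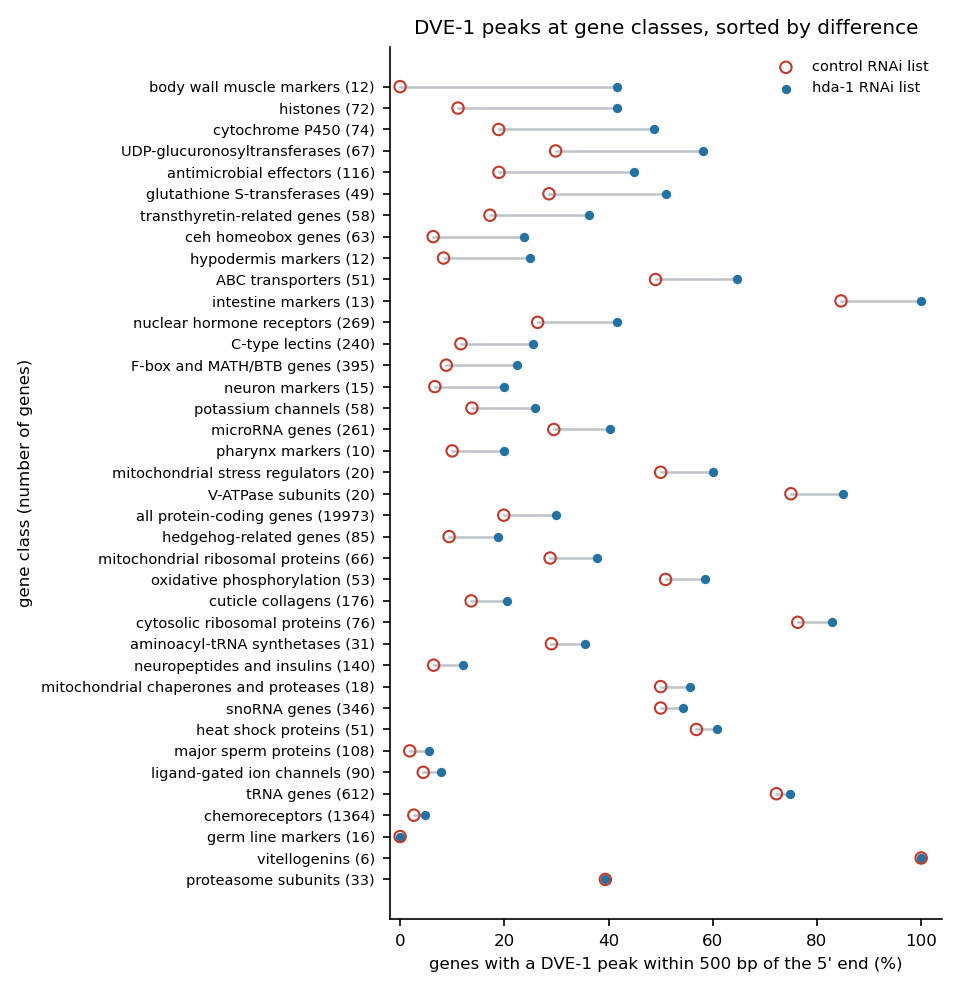
Each row is a gene class with its number of genes, and the horizontal axis is the share in % with a DVE-1 peak within 500 bp of the 5′ end under control RNAi (open) and *hda-1* RNAi (filled). Protein-coding genes together went from 19.9% to 29.9%, and the classes at the top, body wall muscle markers (0% to 41.7%), histones (11.1% to 41.7%) and cytochrome P450 (18.9% to 48.6%), went up by more than that.

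Most cytosolic ribosomal protein genes had a DVE-1 peak under control RNAi (58 of 76), whereas mitochondrial ribosomal protein genes (19 of 66) and aminoacyl-tRNA synthetase genes (9 of 31) mostly did not. Of the 76 cytosolic ribosomal protein genes 54 kept a peak, 4 lost one (6.90% of 58, 2.71 to 16.4), 9 of 18 gained one (50%, 29.0 to 71.0) and 9 had none. With a peak over the 5′ end itself 10 of these genes lost one (43.5%, against 14.7% of all protein-coding genes) and 9 gained one (16.98%, against 10.13%). The lost genes were *rpl-13* (455 bp under control RNAi), *rpl-18* (387 bp), *rpl-5* (309 bp) and *rpl-17* (305 bp), and the gained genes included *rpl-10* (989 bp under *hda-1* RNAi) and *rpl-26* (820 bp). All 9 gained genes had an HDA-1 peak under control RNAi. Of 66 mitochondrial ribosomal protein genes 17 kept a peak, 2 lost one (*mrps-34* and *mrpl-35*) and 8 of 47 gained one (17.02%, 8.89 to 30.1). Of 31 aminoacyl-tRNA synthetase genes, which charge tRNAs, *ears-2* and *iars-1* lost a peak, of 9 with one, and 4 gained one. At *iars-1* the control RNAi coverage was only 23 bp.

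Genes of respiration and protein turnover had few lost or gained members, and their shares depended on the distance allowed to the 5′ end. Of 53 nuclear genes of oxidative phosphorylation 25 kept a peak, 2 lost one (7.41% of 27; *nduf-11*, 551 bp, and *cox-7C*, 515 bp under control RNAi) and 6 of 26 gained one (23.1%, 11.03 to 42.1), the widest coverage being 542 bp at *asg-1*. Proteasome subunits had 10 kept, 3 lost (23.1% of 13, 8.18 to 50.3; *pbs-1*, *rpn-11* and *rpt-1*) and 3 gained genes (*rpn-2*, *pbs-2* and *rpn-1*), so that 13 of 33 had a peak in each list. With a peak over the 5′ end itself 6 genes of oxidative phosphorylation (35.3%) and 4 of the proteasome (57.1%) lost one, against 14.7% of all protein-coding genes. V-ATPase subunits, which acidify lysosomes, had 15 of 15 kept and 2 gained, *vha-18* and *vha-4*. Of 51 heat shock and DnaJ genes 28 kept a peak and *hsp-25*, *dnj-25* and *dnj-2* gained one. *hsp-16.48* lost one that had covered 13 bp.

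Histone genes gained peaks in clusters. Of 64 histone genes without a control RNAi peak 22 gained one (34.4%, 23.9 to 46.6) and 0 of 8 lost it, but only 10 peaks stood behind the 22 genes. One gained peak (V:16039716-16046298) covered the whole window of *his-1*, *his-2*, *his-3* and *his-4*, which encode the core histones of 1 cluster. These 4 windows were covered by 690 bp to the full window with *hda-1* and *atp-2* RNAi and by 0 to 485 bp with control and *atp-2* RNAi, and by 0 bp of HDA-1 control RNAi peaks. Histone genes have near-identical copies, and reads that map to several copies had been removed.

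Markers of the intestine had DVE-1 peaks more often than markers of other tissues. Of 13 intestine markers 11 had a peak under control RNAi and 13 under *hda-1* RNAi, since *elt-7* and *ges-1*, the gut esterase gene, gained one. All 6 vitellogenin genes, which encode yolk proteins made in the intestine, kept theirs. None of 12 body wall muscle markers had a peak under control RNAi and 5 gained one. These were *unc-22* (0 bp and full), *unc-89* (0 bp and full), *unc-15* (0 and 622 bp), *mup-2* (0 and 454 bp) and *unc-27* (0 and 436 bp, named after its value was seen), which encode twitchin, obscurin, paramyosin and troponins of the sarcomere. All 5 had an HDA-1 peak under control RNAi and gained a DVE-1 peak in the *atp-2* pair as well. Of the other lists 1 of 10 pharynx, 1 of 15 neuron and 1 of 12 hypodermis markers had a control RNAi peak, and 2, 3 and 3 had one under *hda-1* RNAi. None of 16 germ line markers had a peak in either list. In whole worms a peak cannot be assigned to 1 tissue, and the part of tissue make-up in these gains was not tested.

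Several large families linked to the body surface, nerve cells or other roles had peaks at a lower share of their genes than the 29.9% of all protein-coding genes under *hda-1* RNAi, except transthyretin-related genes (36.2%). Cuticle collagens gained at 15 of 152 genes (9.87%, 6.07 to 15.6), for example *col-122* (0 bp and full), and lost at 3 of 24, the collagen genes *col-98* and *col-38* and *dpy-18*, which encodes a collagen-modifying prolyl hydroxylase that the list included. Hedgehog-related genes gained at 10 of 77, such as *grl-24* (0 bp and full), and lost at 2 of 8, *ptr-8* and *ptr-23*. Transthyretin-related genes gained at 12 of 48 (25%, 14.9 to 38.8). Neuropeptide and insulin genes gained at 10 of 131 (7.63%), with *ins-7* at 0 and 861 bp and *nlp-33* at 0 bp and full, and *nlp-26* and *nlp-36* lost a peak. At *nlp-26* coverage was full and 0 bp, but 0 and 481 bp in the corresponding lists with *atp-2* RNAi. Chemoreceptor genes, which act in sensory neurons, had a peak in 36 of 1364 cases under control and 64 under *hda-1* RNAi, with 7 of 36 lost (19.4%, 9.75 to 35.03) and 35 of 1328 gained (2.64%, 1.90 to 3.64). F-box and MATH/BTB genes, which encode adaptors of ubiquitin ligases, gained at 56 of 360 (15.6%, 12.2 to 19.7). Gains were 3 of 86 at ligand-gated ion channels and 7 of 50 at potassium channels. On the list named for major sperm proteins 4 of 106 genes gained a peak. These were *nspa-9*, *nspe-6*, *nspe-8* and *ssp-10*, none of which has an *msp* symbol.

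Genes that the study had found induced by *atp-2* RNAi in RNA-seq gained peaks more often than the background. Of 799 such genes with a position 262 kept a DVE-1 peak, 18 of 280 lost it (6.43%, 4.10 to 9.93) and 146 of 519 gained one (28.1%, 24.4 to 32.1). Of 279 *hda-1*-dependent induced genes 4 of 107 with a control RNAi peak lost it (3.74%, 1.46 to 9.22) and 53 of 172 gained one (30.8%, 24.4 to 38.1). Of 218 *dve-1*-dependent genes 97 kept it, 2 of 99 lost it (2.02%) and 48 of the rest gained one (40.3%, 32.0 to 49.3). Of 139 genes dependent on both 63 kept it, 2 lost it (*pals-23* and *K08D8.12*) and 25 of 74 gained one (33.8%, 24.0 to 45.1). Examples that gained with a coverage of 0 bp and full were *cpr-5*, a cathepsin-like protease gene, *cuc-1*, a copper chaperone gene, and *gpx-7*. These lists overlap, and 122 of the 146 gained genes also had a peak in both *atp-2* lists. The RNA data were not analysed here.

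Most tRNA genes had a DVE-1 peak in both lists, and microRNA genes mostly had none. Of 612 tRNA genes 442 had a peak under control RNAi and 458 under *hda-1* RNAi, with 36 lost (8.14%, 5.94 to 11.1) on 30 peaks and 52 of 170 gained (30.6%, 24.2 to 37.9). Of 261 microRNA genes 75 kept a peak, 2 lost one and 30 of 184 gained one (16.3%, 11.7 to 22.3) on 22 peaks. The microRNA genes *cel-mir-43* and *cel-mir-44* shared 1 gained peak (II:11889374-11890995) and went from 0 bp to full, while *cel-mir-235* lost coverage from 603 to 0 bp. Of 346 snoRNA genes, whose products guide rRNA modification, 165 kept a peak, 8 of 173 lost it and 23 of 173 gained one. Pseudogenes had 22 of 121 lost (18.2%, 12.3 to 26.0) and 121 of 2007 gained (6.03%, 5.07 to 7.16).

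Gained genes of different classes differed in where else they were found. All gained genes of oxidative phosphorylation (6), the cytosolic (9) and the mitochondrial ribosome (8) had an HDA-1 peak under control RNAi, against 52.1% of all gained protein-coding genes. Among gained C-type lectins 6 of 33 (18.2%) had one, among histones 4 of 22 (18.2%), UDP-glucuronosyltransferases 5 of 19 (26.3%), antimicrobial effectors 8 of 30 (26.7%) and P450 genes 10 of 23 (43.5%). With *atp-2* RNAi a gain by *hda-1* RNAi was seen again at 0 of 9 cytosolic ribosomal protein, 0 of 11 glutathione S-transferase and 3 of 23 P450 genes (13.04%), most of which had a peak in both *atp-2* lists. It was seen again at 21 of 30 microRNA genes (70.0%), 8 of 15 cuticle collagens (53.3%) and 12 of 30 antimicrobial effectors (40.0%), against 28.0% of all gained protein-coding genes. These shares rest on few genes in each class and carry no test.

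**Figure D5:**
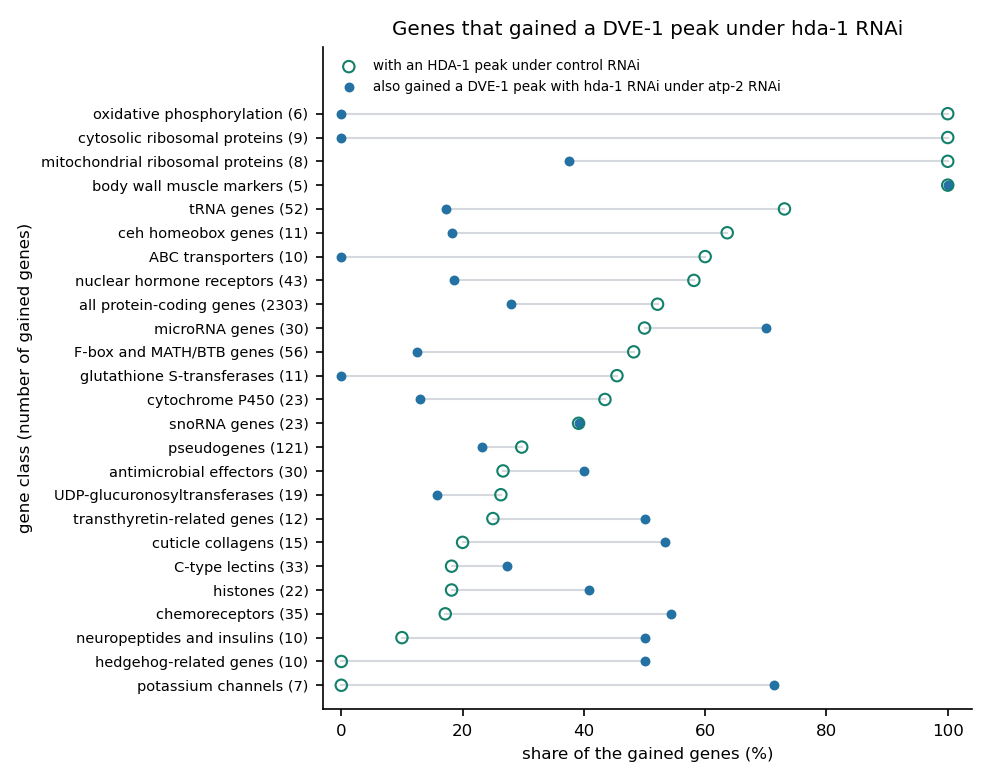
Each row is a gene class with the number of genes that gained a DVE-1 peak (families and gene types with 5 or more, without the lists of induced genes), and the horizontal axis is the share of these genes in %. Open points give genes with an HDA-1 peak under control RNAi and filled points genes that gained a DVE-1 peak with *hda-1* RNAi under *atp-2* RNAi too. All protein-coding genes stand at 52.1% and 28.0%, and body wall muscle markers are at 100% for both.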

How the data were processed

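ChIP and input samples of DVE-1-GFP worms were sequenced. Per the labels and the study's methods the authors trimmed reads with Trim Galore, mapped them to ce11 with BWA 0.7.13-r1126, kept unique proper pairs, removed duplicates with Picard 2.17.6 and called broad peaks with MACS2 2.1.1. The deposited lists give the start and end of each peak in bp and no score, signal or count. How the 2 ChIP samples of a condition were combined into 1 list is not given in the sources used here. The study's reporting summary gives a minimum depth for all samples but not the depth of each, so that differences in depth could not be allowed for.

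Overlaps were counted with each peak counted once, in Python 3.11.15 with numpy 2.4.6, checked against bedtools 2.31.1 (14 of 14 counts equal) and on simulated intervals. Coordinates are WBcel235, counted from 1. Genes came from Ensembl release 115 and sequence from RefSeq. Shares have Wilson intervals, and no test was run. Classes were matched by gene symbol, or by gene ID for the 4 lists of induced genes, taken from the study by name only. The comparison and the lists were chosen with earlier results of these data known. Named genes were all members of the 4 lists of stress regulators, chaperones, tested targets and NuRD and MEC genes, up to 4 lost and 4 gained genes of the others with the most coverage, the genes at the 5 widest lost and gained peaks, and *hsp-4*, *hsp-16.2*, *irg-1*, *cox-5B*, *atp-2* and *glp-4*. The searches for words around genes, the repeat and annotation shares, the chromosome arms and the *unc-27* and *dhs-25* values were added after values were seen. Alternatives changed the overlap, the minimum width, the distance to the 5′ end and the number of *hda-1* RNAi peaks. Plots used matplotlib 3.10.9. The other 4 HDA-1 and 2 DVE-1 lists served only to show where peaks recurred.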

Additional observations from a re-analysis of the deposited data

How the results depend on the processing

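The numbers of lost and gained peaks depended on what counted as a match. With at least 50% of the peak covered 495 peaks were lost, and with at least 50% of both peaks covered 1278, against 243 with 1 bp. Gained peaks were then 3391 and 3961, against 2865. With a peak within 500 bp counted as a match 243 and 2862 were lost and gained, and without peaks under 500 bp 315 and 2323. When only the 4279 widest *hda-1* RNAi peaks were used, 1304 peaks were lost and 1324 gained, and 1168 protein-coding genes lost and 1330 gained a peak, against 315 and 2303; this setting removes narrow peaks by construction. With these equal list lengths the gained share was 8.31% of protein-coding genes, 25% of P450, 27.7% of UDP-glucuronosyltransferase, 23.4% of antimicrobial effector and 25% of histone genes. For nuclear hormone receptors it was 9.09%, close to that of all protein-coding genes. The lost share was 29.4% of all protein-coding genes, 35.7% of P450, 15% of UDP-glucuronosyltransferase, 13.6% of antimicrobial effector and 0% of histone genes. Among cytosolic ribosomal protein genes 37 lost a peak (63.8%) and 5 gained one (27.8%). Lost shares were 57.9% of mitochondrial ribosomal protein genes and 55.6% of both oxidative phosphorylation and aminoacyl-tRNA synthetase genes, so the shares near the background given above for some of these classes depended on the list length. With a peak over the 5′ end itself 424 genes lost and 1731 gained one, and within 1000 bp 294 and 2660. Of 432 counts recomputed for gene classes 287 stayed within 1.5 times. No paired analysis was possible because each condition has 1 list, and for the same reason no sample could be left out. The unknown depth of each list limits all counts, since a peak missing from a list may have been under its threshold.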
